A study of Homo sapiens with 30 samples.

Results

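The S100, annexin and galectin-1 genes form a group of 10 among the 18132 entries of the RNA-seq table. They were found by symbol and comprise 6 S100 genes (S100A10, S100A4, S100A6, S100A11, S100A13 and S100A16), 3 annexins (ANXA1, ANXA2 and ANXA5) and LGALS1, which encodes galectin-1. They were chosen because of 2 measured values, namely the difference in S100A10 mRNA between untreated parental and engineered cells, and a rise of LGALS1 promoter-proximal PRO-seq signal. Those values are described below without a test. All 10 genes were also found among the 20582 entries of the PRO-seq table.

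The cells were G401, an established malignant rhabdoid tumour line of the kidney, and a derivative called DTMYC. DTMYC cells carry lentiviral c-MYC with an N-terminal HA-FKBP12F36V tag, and CRISPR-Cas9 had taken out their own MYC gene. The compound dTAG47 marks proteins with this tag for degradation, and it was given in DMSO, the control. RNA-seq at 24 h compared 4 groups of 3 libraries: parental G401 in DMSO, parental G401 in 500 nM dTAG47, DTMYC in DMSO and DTMYC in 500 nM dTAG47. For PRO-seq, a count of engaged RNA polymerases at 4 h, there were 2 libraries per treatment. Open chromatin was mapped by ATAC-seq at 24 h in 3 libraries per treatment, and MYC binding by ChIP-seq at 4 h in 2 DMSO and 3 dTAG47 libraries. The last 3 assays were from DTMYC cells, so they hold no parental value. The labels do not say whether DTMYC is 1 clone or a pool, nor that the replicates were separate cultures, so a p-value reflects the spread among these libraries, which may be technical. Between the lines, the loss of endogenous MYC, the gain of lentiviral MYC and any other change that came with making the DTMYC line cannot be told apart.

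S100 proteins are small calcium-binding proteins with EF-hand motifs, usually dimers, that change shape on binding calcium and then dock onto target proteins. S100A10 is the exception in that it no longer responds to calcium, and it sits with annexin A2 in a heterotetramer at the plasma membrane that binds plasminogen and its activator. Annexins bind phospholipid membranes when calcium rises, and they act in membrane repair, vesicle traffic and, for annexin A1, the resolution of inflammation. Galectin-1 is a secreted lectin that binds beta-galactoside sugars on cell-surface glycoproteins. Many S100 genes lie side by side on the long arm of chromosome 1, in and beside the epidermal differentiation complex that also holds the filaggrin family.

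RNA-seq libraries held 27854207 to 54633745 counts, PRO-seq libraries 18209879 to 23256313 counts in gene bodies and 1216928 to 1632084 in promoter-proximal regions, and the peak lists give no read depth. MYC mRNA was at 235 ± 28.2 CPM (SD, n = 3; CPM is the read count divided by the size of its library) in parental cells in DMSO and at 1366 ± 46.2 in DTMYC cells in DMSO. This does not check the degradation itself, which acts on the protein, and SMARCB1, whose loss defines these tumours, was not analysed here. VIM, the mesenchymal filament gene that rhabdoid cells express, was at 622 to 719 CPM in the means of the 4 groups. Parental DMSO library 3 stood apart from its group, and results that rest on it are given with and without it. Of the markers of other cells, 7 fibroblast genes in the table summed to 3768 to 4022 CPM in DTMYC cells in DMSO, 4535 to 4758 after dTAG47, and 2021 to 3595 and 2882 to 3040 in parental cells in DMSO and dTAG47. Collagen genes made up most of each sum, and LUM had at most 2 reads in a group. In DMSO the means of COL1A1, COL1A2, THY1 and PDGFRA were higher in DTMYC than in parental cells. Those of COL3A1 and PDGFRB were lower. The 8 kidney epithelial markers summed to at most 7.64 CPM and the 7 haematopoietic ones to at most 0.725 CPM in any library. The part of these marker levels in the results below was not tested.

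The promoters below are those of the neighbouring S100 pair that was nearly absent from parental cells (S100A10 and S100A11), of the one member with a MYC peak in both DMSO ChIP libraries (ANXA2), and of the expressed members with no open-chromatin peak at a start site (ANXA1 and S100A16). Each is the RefSeq sequence (table build GRCh38.p14) of the 250 bases before the annotated start, 5′ to 3′ on the gene's strand. Each matched GRCh37, the same build as hg19, once. The positions in GRCh37 are chr1:151966336-151966585 (minus strand), chr1:152009481-152009730 (minus), chr15:60690186-60690435 (minus), chr9:75766531-75766780 (plus) and chr1:153585614-153585863 (minus). Capitals mark 4 motifs searched on both strands: the E-box CACGTG that MYC binds with MAX, the AP-1 site TGAGTCA, the TATA box TATAAA, and GGGCGG, the core of the GC box, whose adjacent copies overlap.
S100A10: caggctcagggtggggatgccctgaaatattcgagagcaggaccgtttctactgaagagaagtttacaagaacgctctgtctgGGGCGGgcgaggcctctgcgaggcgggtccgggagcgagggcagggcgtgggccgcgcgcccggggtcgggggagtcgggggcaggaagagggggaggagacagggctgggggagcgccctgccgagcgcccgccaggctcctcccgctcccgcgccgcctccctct
S100A11: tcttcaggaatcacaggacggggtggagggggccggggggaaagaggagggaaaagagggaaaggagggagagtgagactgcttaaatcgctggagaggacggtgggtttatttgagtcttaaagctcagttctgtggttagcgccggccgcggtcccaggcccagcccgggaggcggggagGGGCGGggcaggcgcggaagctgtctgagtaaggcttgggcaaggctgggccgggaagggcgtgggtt
ANXA2: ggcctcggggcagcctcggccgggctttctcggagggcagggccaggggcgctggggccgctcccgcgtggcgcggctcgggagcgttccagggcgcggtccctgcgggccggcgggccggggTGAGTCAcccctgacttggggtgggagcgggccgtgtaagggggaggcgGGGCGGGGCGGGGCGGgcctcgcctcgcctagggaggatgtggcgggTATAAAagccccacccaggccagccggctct
ANXA1: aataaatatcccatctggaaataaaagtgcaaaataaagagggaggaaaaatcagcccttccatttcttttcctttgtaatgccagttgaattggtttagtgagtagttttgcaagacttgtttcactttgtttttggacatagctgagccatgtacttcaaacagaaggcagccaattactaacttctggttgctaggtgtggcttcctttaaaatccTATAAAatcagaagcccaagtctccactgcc
S100A16: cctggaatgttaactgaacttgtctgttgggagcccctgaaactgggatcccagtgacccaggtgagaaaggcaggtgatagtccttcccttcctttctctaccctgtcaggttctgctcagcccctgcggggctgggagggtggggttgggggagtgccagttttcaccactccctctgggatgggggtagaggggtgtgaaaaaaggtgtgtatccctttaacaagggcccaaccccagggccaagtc

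RefSeq promoters were found for 9 of the 10 genes, all but LGALS1. Over 300 bases, which include 50 after the start, the ANXA2 promoter held 32 CpG dinucleotides, a TGAGTCA 127 bases and a TATAAA 31 bases before the start, and 3 copies of GGGCGG. That of S100A10 held 32 CpG dinucleotides, 1 GGGCGG and no TATAAA, and that of S100A11 held 22 and 1 GGGCGG. ANXA1 was the opposite kind, with 0 CpG dinucleotides and a TATAAA 31 bases before its start, and S100A16 (first start) held 3 CpG dinucleotides and none of the 4 motifs. S100A4 also held a TATAAA 31 bases before its start, with 8 CpG dinucleotides. No promoter of these 9 genes held CACGTG. Among all 35116 promoters of the table, 7.26% held CACGTG, 4.95% TGAGTCA, 11.5% TATAAA and 45.0% GGGCGG, and the median number of CpG dinucleotides was 14. A match is a description of letters and not a binding site.

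Expressed per kilobase of the deposited gene model, so that genes can be set side by side, the order of mRNA levels in DTMYC cells in DMSO was S100A4 (453 CPM per kb), S100A6 (285), ANXA5 (159), LGALS1 (115), ANXA2 (88.3), S100A10 (31.7), S100A13 (14.1), S100A16 (8.81), ANXA1 (7.57) and S100A11 (0.766). Most members were thus abundant, and S100A11 was close to silent. This order depends on the length of the gene model, which need not be that of the transcript expressed. In CPM, without that length, ANXA2 stood first in these cells, at 779. In parental cells in DMSO the same scale put S100A4 at 371, S100A6 at 351, LGALS1 at 235, ANXA5 at 90.3, ANXA2 at 75.0, S100A13 at 27.6, S100A16 at 13.1 and ANXA1 at 7.58 CPM per kb. S100A10 and S100A11 stood last there, at 0.0978 and 0.0952 CPM per kb. Neighbours in the order that did not differ beyond their spread were S100A4 and S100A6 in parental cells, at 371 ± 50.6 and 351 ± 47.8 CPM per kb (SD, n = 3), S100A10 and S100A11 in parental cells, at 0.0978 ± 0.0118 and 0.0952 ± 0.0871, and S100A16 and ANXA1 in DTMYC cells, at 8.81 ± 0.910 and 7.57 ± 0.440.

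**Figure D1:**
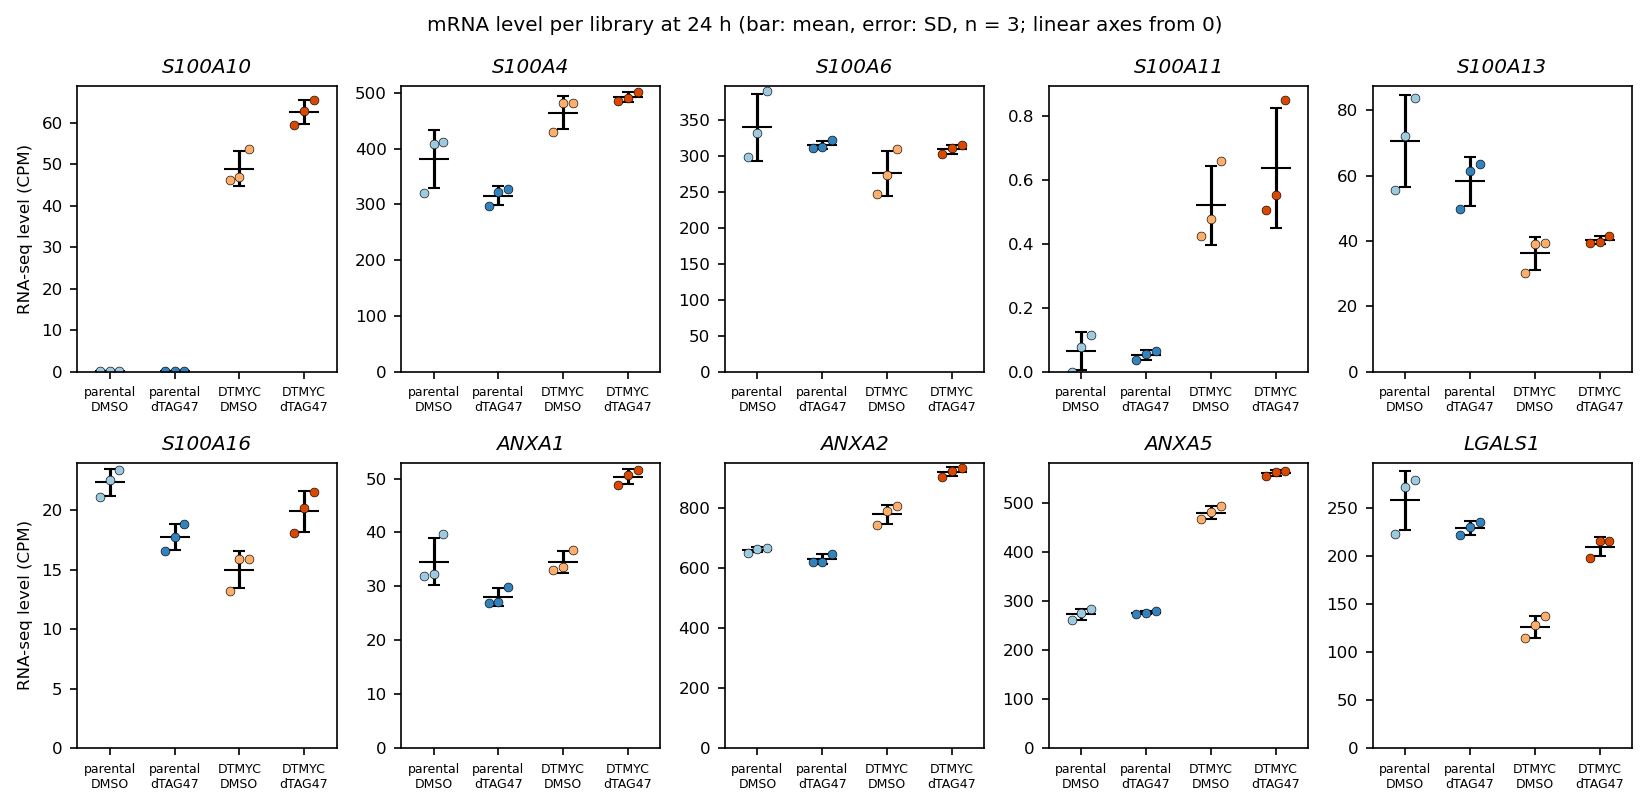
mRNA level of each of the 10 genes in CPM (vertical axis, linear from 0, one scale per gene) in the 4 RNA-seq groups of 3 libraries at 24 h, with points for libraries, a bar for the mean and error bars for the SD. S100A10 reached at most 0.271 CPM in the 6 parental libraries and at least 46.1 in the 6 DTMYC libraries, and LGALS1 rose after dTAG47 in DTMYC cells from a mean of 127 to 210 CPM, beside 229 in parental cells.

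S100A10, the plasminogen-binding partner of annexin A2 (ENSG00000197747, chromosome 1, 151955391 to 151966866, hg19), was nearly absent from parental cells and present in DTMYC cells. The DTMYC libraries in DMSO held 1520, 1375 and 1870 reads of S100A10, and the parental ones 6, 7 and 5. In CPM these were 46.1, 47.0 and 53.6 in DTMYC cells against 0.160, 0.163 and 0.130 in parental cells. The ratio of the depth-scaled summed counts was 324, with an exact 95% counting interval of 205 to 548. This contrast chose the gene and carries no test, and 71.5% of all genes tested did not overlap between the lines in DMSO. The dTAG47 libraries held 1722, 2113 and 1842 reads in DTMYC cells and 15, 4 and 4 in parental cells. There S100A10 was at 62.5 ± 2.98 CPM against 0.171 ± 0.0870 (SD, n = 3). The ratio of summed counts was 331 (interval 220 to 522), and the edgeR log2 difference was 8.36. It is the same line difference in the same lines, and S100A10 passed the filter on low counts only through its DTMYC groups, so these values are likewise given without a test.

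Within DTMYC cells the change of S100A10 with dTAG47 missed the threshold. It went from 48.9 ± 4.12 to 62.5 ± 2.98 CPM, and every dTAG47 library lay above every DMSO library. The log2 change of 0.35 ± 0.11 had an edgeR Benjamini-Hochberg adjusted p of 0.0667, which did not pass 0.05, and DESeq2 gave 0.0224. It did pass in edgeR with only the 2 DTMYC groups in the fit (adjusted p = 0.000888), without parental DMSO library 3 (adjusted p = 0.0025) and without parental dTAG47 library 1 (adjusted p = 0.0381), and the adjusted p ranged up to 0.242 without DTMYC DMSO library 1. S100A10 counts in parental cells were too few for a response to be resolved at this depth (log2 0.30 ± 0.35).

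The nearest S100 gene, S100A11 (ENSG00000163191, chromosome 1, 152004982 to 152020383), has its gene model 38116 bases from that of S100A10, end to end, and encodes a partner of annexin A1. Its DTMYC libraries held 14, 14 and 23 reads in DMSO and 16, 17 and 24 after dTAG47, and its parental libraries held 0, 5 and 3, and 2, 2 and 2. It was therefore higher in every DTMYC library, but at 0.521 ± 0.123 CPM in DMSO and 0.636 ± 0.188 after dTAG47 it stayed far below S100A10. The ratio of summed counts was 7.81 in DMSO (interval 3.68 to 19.1) and 12.7 under dTAG47 (5.50 to 36.1), and like S100A10 the gene passed the filter on low counts only through the DTMYC groups. S100A11 has 8 processed pseudogenes in the annotation, so reads shared with them make its value uncertain.

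The tested genes nearest to S100A10 on one side were also higher in DTMYC cells, and those on the other side were not all so. Under dTAG47, HRNR (hornerin) was higher in DTMYC cells by 3.94 on the log2 scale, FLG (filaggrin) by 3.19 and FLG2 (filaggrin-2) by 4.80. The edgeR adjusted p of FLG was 6.99e-10. HRNR and FLG2 had parental means below the 0.293 CPM that the filter on low counts asked of a library, so no test is given for them. All 3 encode proteins of the cornified layer of skin. FLG was the most abundant of them, at 37.1 CPM in DTMYC cells and 3.48 in parental cells in DMSO. The next tested gene, S100A6, more than 1 megabase away, had a log2 difference of −0.03 (adjusted p = 0.806). On the other side MRPL9 was lower in DTMYC cells (−0.79, adjusted p = 2.27e-06) and SNX27 higher by 0.35, and CELF3, OAZ3 and TDRKH had values of 0.54, 0.06 and 0.05 and were not called. These neighbours were named by position alone, and 76.4% of the 13401 genes tested differed between the lines under dTAG47, with 37.4% higher and 38.9% lower in DTMYC cells.

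**Figure D2:**
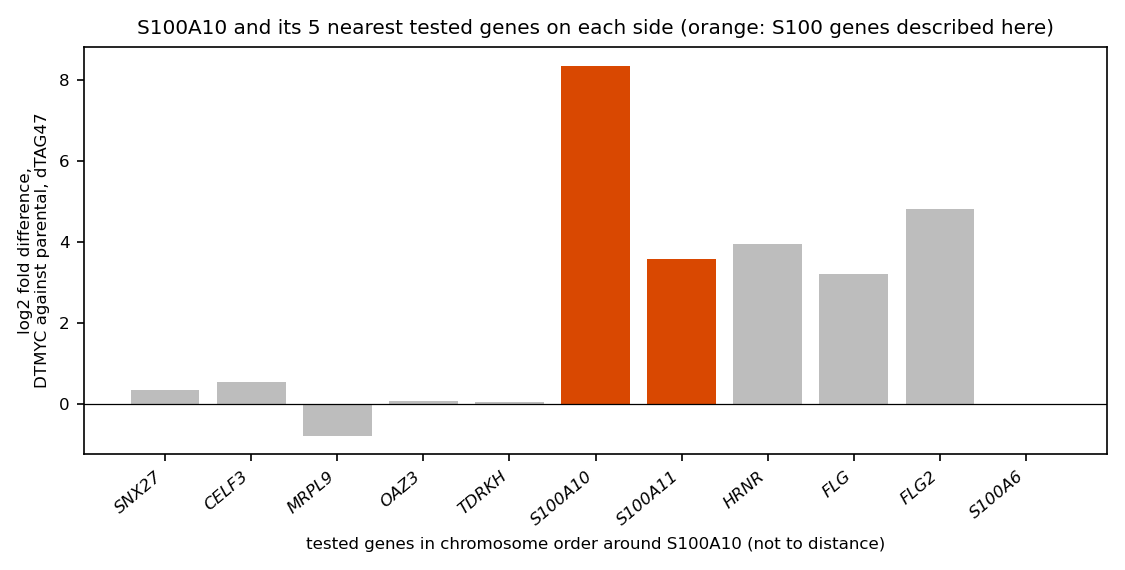
Log2 fold difference between DTMYC and parental cells under dTAG47 (vertical axis) for S100A10 and the 5 nearest tested genes on each side in chromosome order (horizontal axis, not to distance), with the 3 S100 genes described here in orange. S100A10 reached 8.36, S100A11, HRNR, FLG and FLG2 lay between 3.19 and 4.80, and the other 6 genes lay between −0.79 and 0.54.

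Annexin A2 (ANXA2, ENSG00000182718, chromosome 15, 60639333 to 60695082), which binds S100A10, was abundant in both lines, also where S100A10 was nearly absent. Parental libraries in DMSO held 665, 652 and 668 CPM and DTMYC libraries 789, 743 and 806. After dTAG47 the DTMYC libraries held 922, 935 and 905 CPM, all above DMSO, and the parental ones 622, 649 and 620. In DTMYC cells ANXA2 rose by 0.24 ± 0.06 on the log2 scale (edgeR, adjusted p = 0.0253). Leaving out any one of the 6 DTMYC libraries ended this call (adjusted p 0.064 to 0.117), as did testing without a filter on low counts (0.0764). Under dTAG47 it was higher in DTMYC than in parental cells by 0.55 ± 0.06, with an adjusted p of 3.91e-06. ANXA2 has 3 processed pseudogenes, and reads shared with them could not be separated.

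Annexin A5 (ANXA5, ENSG00000164111, chromosome 4, 122589110 to 122618268), which binds phosphatidylserine exposed on dying cells, differed between the lines. It was at 281, 277 and 274 CPM in parental cells under dTAG47 and at 556, 565 and 567 in DTMYC cells, a log2 difference of 1.02 ± 0.06 with an edgeR adjusted p of 1.46e-08. The DMSO groups stood 1.76-fold apart, at 274 ± 11.1 and 481 ± 13.8 CPM (SD, n = 3). Within DTMYC cells dTAG47 raised it from 467, 495 and 482 CPM by 0.23 ± 0.06 on the log2 scale (adjusted p = 0.0335), with no overlap between the groups. That call was lost with size factors from the RLE method (adjusted p = 0.0742), without the filter (0.105), and on leaving out any one of the DTMYC or parental dTAG47 libraries (0.0622 to 0.151). In parental cells the log2 change of ANXA5 was 0.02 ± 0.06.

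Annexin A1 (ANXA1, ENSG00000135046, chromosome 9, 75766673 to 75785309), the glucocorticoid-induced anti-inflammatory annexin, had levels that overlapped between the lines without dTAG47 and lay apart with it. In DMSO it was at 33.1, 33.6 and 36.8 CPM in DTMYC cells and at 31.9, 32.2 and 39.6 in parental cells. After dTAG47 the DTMYC libraries were at 48.9, 50.6 and 51.5 CPM and the parental libraries at 27.0, 27.0 and 29.9, so the treated groups lay above and below all DMSO libraries. ANXA1 rose in DTMYC cells by 0.54 ± 0.10 on the log2 scale (edgeR, adjusted p = 0.00624), a call that held in every alternative run (adjusted p at most 0.0400). In parental cells the change was −0.31 ± 0.10 with an adjusted p of 0.183, and it passed without parental DMSO library 3 (−0.21, adjusted p = 0.0425). The responses of the 2 lines differed by 0.85 ± 0.14 (adjusted p = 0.0206), and without any one of the DTMYC or parental dTAG47 libraries this adjusted p was 0.0551 to 0.0935.

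Galectin-1 mRNA (LGALS1, ENSG00000100097, chromosome 22, 38071615 to 38075813) had the largest response to dTAG47 of the 10 genes. DTMYC libraries went from 128, 115 and 138 CPM in DMSO to 216, 216 and 199 after dTAG47, with no overlap. The log2 change was 0.73 ± 0.09 with an edgeR adjusted p of 0.00156, and it held in every alternative (adjusted p at most 0.0158). In parental cells LGALS1 was at 280, 272 and 223 CPM in DMSO and at 231, 236 and 222 after dTAG47, so these groups overlapped (−0.17 ± 0.09, adjusted p = 0.387). Without parental DMSO library 3, the lowest of its group, the parental change was −0.28 with an adjusted p of 0.00916. The responses of the lines differed by 0.90 ± 0.13 (adjusted p = 0.0157). On leaving out DTMYC DMSO library 1, DTMYC dTAG47 library 1 or 2, or any parental dTAG47 library, that adjusted p was 0.0565 to 0.0730.

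Between the lines, LGALS1 in DMSO was at 127 ± 11.5 CPM in DTMYC cells and 259 ± 30.6 in parental cells, a fold of 0.49. Under dTAG47 the levels were 210 ± 10.1 and 229 ± 7.0 CPM, with a log2 difference of −0.13 ± 0.09 and an adjusted p of 0.237. The 3 DTMYC libraries still lay below the 3 parental ones. That difference passed 0.05 with only the 2 dTAG47 groups in the fit (adjusted p = 0.035) and without parental DMSO library 3 (adjusted p = 0.0229). Of its 10 nearest tested genes, TRIOBP, an actin-bundling protein gene, also rose in DTMYC cells after dTAG47, by 0.42 (adjusted p = 0.0271). The other 9, among them LGALS2 and the histone gene H1F0, did not pass, with values between −0.47 and 0.21.

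**Figure D3:**
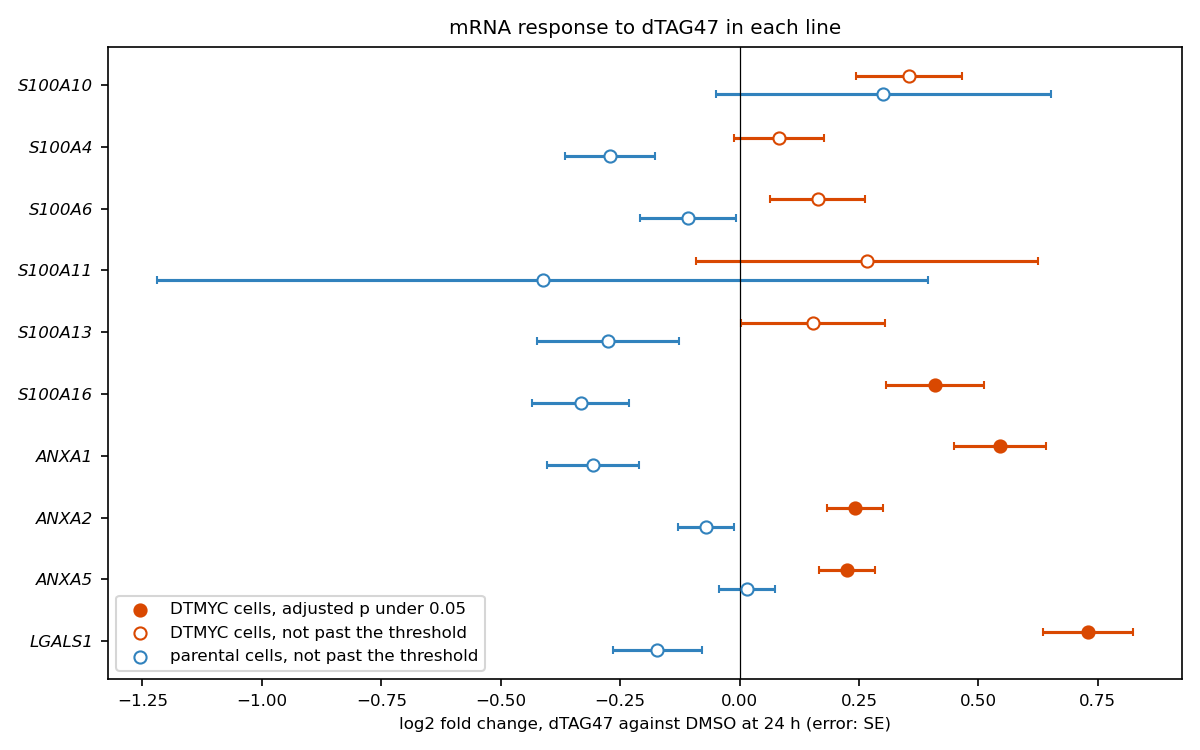
Log2 fold change of mRNA after 24 h of dTAG47 against DMSO (horizontal axis, with SE bars) for the 10 genes, in DTMYC cells (orange) and parental cells (blue), with filled points for an edgeR adjusted p under 0.05. All 10 DTMYC values lay above 0, with 5 filled, and 8 of the 10 parental values lay below 0, with none filled.

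Over the whole group, 5 of 10 genes rose in DTMYC cells after dTAG47 (LGALS1, ANXA1, S100A16, ANXA2 and ANXA5) and 0 fell, while 8.71% of all 13401 genes were called, 4.27% upwards. The median log2 change of the 10 was 0.25, against 0.03 over all genes. In 8 of the 10 the dTAG47 libraries all lay above the DMSO libraries, as they did in 25.2% of all genes. In parental cells 0 of 10 were called by edgeR (3 had an unadjusted p under 0.05, namely S100A4, S100A16 and ANXA1, all with negative values) and 0 by DESeq2, and 0.127% of all genes were called. In 3 of the 10 (S100A16, ANXA1 and ANXA2) the parental dTAG47 libraries all lay below the DMSO ones, as in 6.63% of all genes. Without parental DMSO library 3, edgeR called 5 members lower in parental cells after dTAG47 (S100A4, S100A13, S100A16, ANXA1 and LGALS1), and the number of genes called went from 17 to 2718. That run kept parental dTAG47 library 3, which deviated from its group in a like way. The responses of the lines differed for 3 of 10, all more positive in DTMYC cells, against 1.19% of all genes, or 0.597% in that direction. Without parental DMSO library 3 the difference of responses passed for 7 members, with S100A4 (adjusted p = 0.00246), S100A6 (0.0349), S100A13 (0.0123) and ANXA2 (0.0208) added. It passed for 0 on leaving out DTMYC DMSO library 1, DTMYC dTAG47 library 1 or 2, or any parental dTAG47 library. Under dTAG47 the DTMYC line was called higher for 4 and lower for 1 of the 8 members that passed the filter in all groups, a share no larger than the 76.4% of all genes.

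S100A16 (ENSG00000188643, chromosome 1, 153579362 to 153585621), an S100 protein with low calcium affinity, had responses to dTAG47 that differed between the lines. DTMYC libraries went from 15.9, 13.2 and 15.9 CPM to 21.5, 20.2 and 18.1, and parental libraries from 23.4, 22.5 and 21.1 to 18.8, 16.6 and 17.8, with no overlap in either line. The rise in DTMYC cells was 0.41 ± 0.10 on the log2 scale (edgeR, adjusted p = 0.0287), and the parental change was −0.33 ± 0.10 (adjusted p = 0.169; 0.00734 without parental DMSO library 3). The difference of the responses was 0.74 ± 0.14 with an adjusted p of 0.0368. The DTMYC rise was lost without the filter on low counts (adjusted p = 0.0504) and on leaving out any DTMYC library but dTAG47 library 3 (0.0701 to 0.125). The difference of responses was lost on leaving out any DTMYC or parental dTAG47 library (0.0784 to 0.121). Under dTAG47 the difference of S100A16 between the lines did not pass the test (log2 0.17 ± 0.10, adjusted p = 0.153).

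The 3 remaining S100 genes showed no called response to dTAG47. S100A4 (metastasin, a binder of non-muscle myosin; ENSG00000196154, chromosome 1, 153516089 to 153522612) was at 465 ± 29.5 CPM in DTMYC cells in DMSO and 492 ± 8.80 after dTAG47, and at 381 ± 51.9 and 315 ± 16.7 in parental cells (SD, n = 3). Its line difference under dTAG47 was 0.64 ± 0.09 on the log2 scale (edgeR, adjusted p = 5.27e-05), and its gene model overlaps that of S100A3 on the same strand. S100A13, which takes part in the release of FGF1 (ENSG00000189171, chromosome 1, 153591263 to 153606568), was lower in DTMYC cells, at 40.3 ± 1.22 against 58.2 ± 7.46 CPM under dTAG47 (−0.53 ± 0.15, adjusted p = 0.00592). It overlaps S100A1 and CHTOP on the opposite strand, and whether the counting used strand is not given in the sources used here, so their reads may be mixed. S100A6 (calcyclin; ENSG00000197956, chromosome 1, 153507075 to 153508720) was at 310 ± 6.26 and 316 ± 5.39 CPM in the lines under dTAG47, and its libraries overlapped.

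Polymerase counts at 4 h, a different readout from mRNA at 24 h, showed the earliest values after dTAG47. Over gene bodies no gene passed edgeR's test (0 of 13397 adjusted, a percentage called of 0, with 1298 at an unadjusted p under 0.05; DESeq2 called 67, none of them among these 10). LGALS1, chosen from these libraries and therefore described only, had 187 and 157 gene body reads in DMSO and 327 and 248 after dTAG47, or 8.16 and 7.87 against 15.4 and 13.7 CPM, a fold of 1.81. Its promoter-proximal reads were 396 and 448 in DMSO and 516 and 951 after dTAG47, or 17.3 and 22.5 against 24.3 and 52.5 CPM, a fold of 1.93. The rise ranked 24 of the 10226 genes measured there, and 4.41% of them had both dTAG47 libraries above both DMSO libraries. It leaned on dTAG47 library 2: without that library the log2 change was 0.29 rather than 0.95, whereas the gene body change was 0.93 rather than 0.86. Promoter-proximal reads per 100 gene body reads were 212 and 285 in DMSO and 158 and 383 after dTAG47, which overlap.

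Among the other members ANXA2 had the smallest unadjusted p over its gene body. It was at 366 and 348 CPM in DMSO and 455 and 441 after dTAG47 (log2 0.33 ± 0.08, edgeR adjusted p = 0.421). Its promoter-proximal values were 21.8 and 28.7 against 16.9 and 26.6 CPM, which overlap. ANXA1 went from 6.24 and 3.91 to 8.55 and 6.57 CPM (0.57 ± 0.30), ANXA5 from 122 and 104 to 128 and 126 (0.17 ± 0.10) and S100A10 from 26.7 and 20.6 to 31.2 and 29.5 (0.36 ± 0.15) over gene bodies. In these 3 both dTAG47 libraries also lay above both DMSO libraries. S100A4 was the one member whose gene body libraries lay apart in the other direction, from 31.6 and 34.1 to 25.1 and 29.8 CPM (−0.26 ± 0.13). Such separation upwards was found in 20.6% of all gene bodies and downwards in 19.3%. S100A11 had 5 and 3 gene body reads in DMSO and 8 and 10 after dTAG47 and was too low to test, and S100A6, S100A13 and S100A16 had log2 changes of −0.09, 0.04 and 0.15 over gene bodies with overlapping libraries.

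In the promoter-proximal region, whose rise in LGALS1 chose the group, the other members are also described without a test. S100A16 had 9 and 11 reads there in DMSO and 13 and 25 after dTAG47, a fold of 2.08 in CPM. ANXA1 had 11 and 14 reads in DMSO and 16 and 16 after dTAG47, a fold of 1.39. Both lay above DMSO in both dTAG47 libraries, on few reads. S100A4, S100A6, S100A13, ANXA2 and ANXA5 had libraries that overlapped there, with folds of 0.837 to 0.974. S100A10 and S100A11 had too few reads there for a fold.

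**Figure D4:**
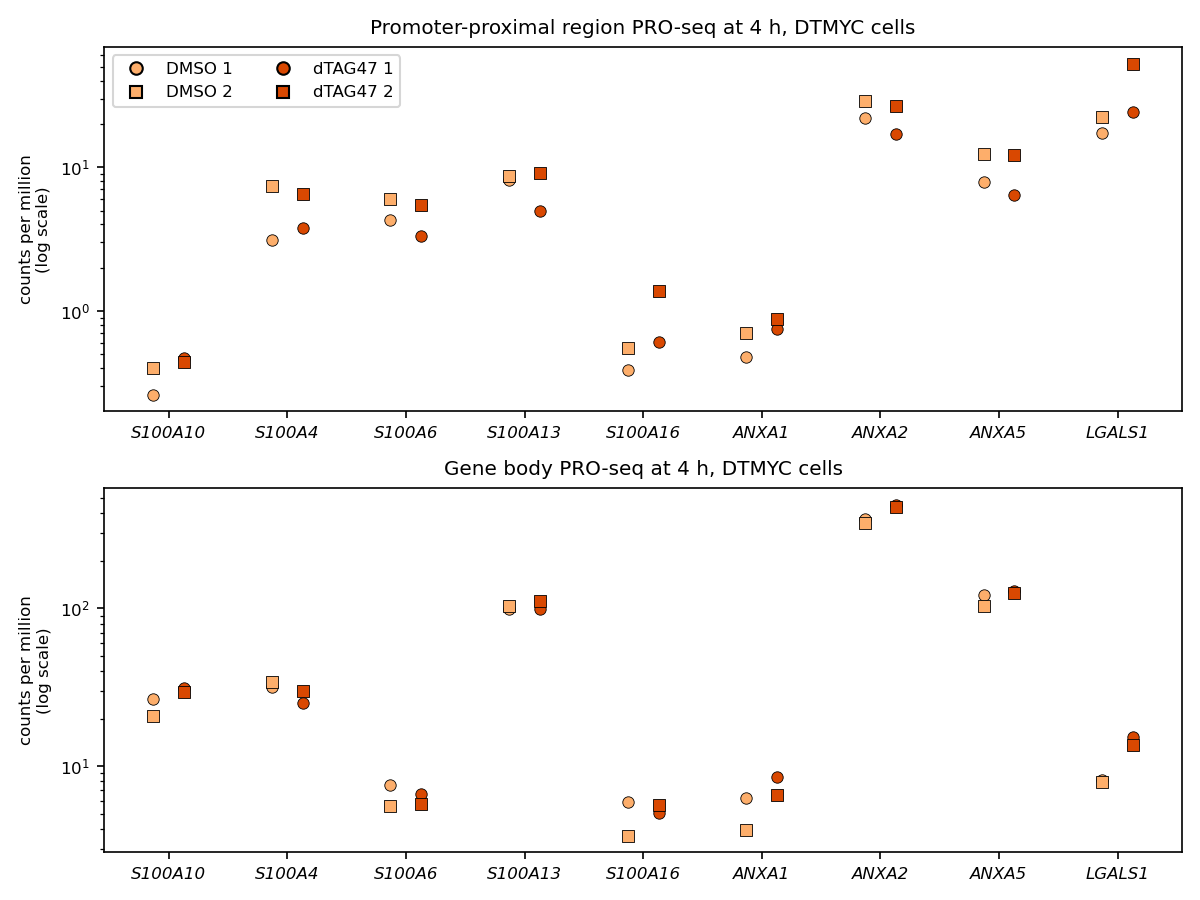
PRO-seq CPM at 4 h (vertical axes, log scale) in the promoter-proximal region (upper) and gene body (lower) of the 9 members with more than a few reads, with circles and squares for libraries 1 and 2 of DMSO (light) and dTAG47 (dark). LGALS1 lay at 17.3 and 22.5 against 24.3 and 52.5 in the upper panel and at 8.16 and 7.87 against 15.4 and 13.7 in the lower.

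The split of polymerase reads between the promoter-proximal region and the gene body, as counted, differed among the genes. LGALS1 had more reads in its promoter-proximal region than over the gene body counted in all 4 libraries. ANXA2 had 3.71 to 8.26 promoter-proximal reads per 100 gene body reads and S100A10 had 0.982 to 1.94. In S100A10 that rested on 6 to 10 promoter-proximal reads a library. Gene bodies differ in length, from 642 bases counted in S100A6 to 49836 in ANXA2, so these ratios are not comparable between genes per base.

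Open chromatin was called at the start sites of some members and not of others, in lists where the peak score is the authors' own. Of 8731 genes with at least 10 CPM, 90.6% had an ATAC peak within 1000 bases of a start site in all 6 libraries and 1.04% had none in any. ANXA5 had the highest scores, 207 to 813, followed by ANXA2 (91 to 289), S100A4 (25 to 187), S100A13 (55 to 184) and LGALS1 (22 to 97), all in 6 of 6 libraries. S100A10, which DTMYC cells express, had a peak in 4 of 6 libraries with scores of 24 to 36. S100A6, among the most abundant mRNAs here, had one in 1 of 6 libraries, with a score of 23. ANXA1, S100A16 and S100A11 had none, and the peak nearest to a start of ANXA1 lay 48007 bases away in the closest library. No member gained or lost a peak in all 3 libraries of a treatment, and with 3 against 3 libraries an exact permutation test could not give a p below 0.1, so none was run. The libraries held 28429 to 50983 peaks, and a missing peak in a list is not a measurement of closed chromatin.

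MYC ChIP-seq peaks within 1000 bases of a start site were found at 3 members in DMSO and at none of the 10 after dTAG47, where the lists held 408, 7 and 193 peaks in all. ANXA2 had a peak in both DMSO libraries, with scores of 72 and 258, as had 11.4% of genes with at least 10 CPM (34.7% had one in either library). S100A4 and S100A6 had a peak in DMSO library 1, with scores of 35 and 16, and not in DMSO library 3. Those 2 peaks each held 1 copy of CACGTG, in both cases more than 150 bases from the midpoint of the peak, shown here with the letters around it on the plus strand of GRCh37 because no member's promoter held this motif.
S100A4 site: aaatgcccCACGTGgggactca
S100A6 site: cttcgtgaCACGTGactcggca
The S100A4 copy began at position 153517096 of chromosome 1, in an intron, 1186 bases downstream of the main start site. The S100A6 copy began at 153508746, outside the main transcript, at −279 bases from its start site. The ANXA2 peaks held no CACGTG. Within 150 bases of the midpoint 26.3% of the peaks of DMSO library 1 and 32.6% of those of library 3 held one, and on that measure none of the peaks at these 3 genes did. Of the 3 genes, ANXA2 rose in mRNA after dTAG47, and S100A4 and S100A6 were not called.

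**Figure D5:**
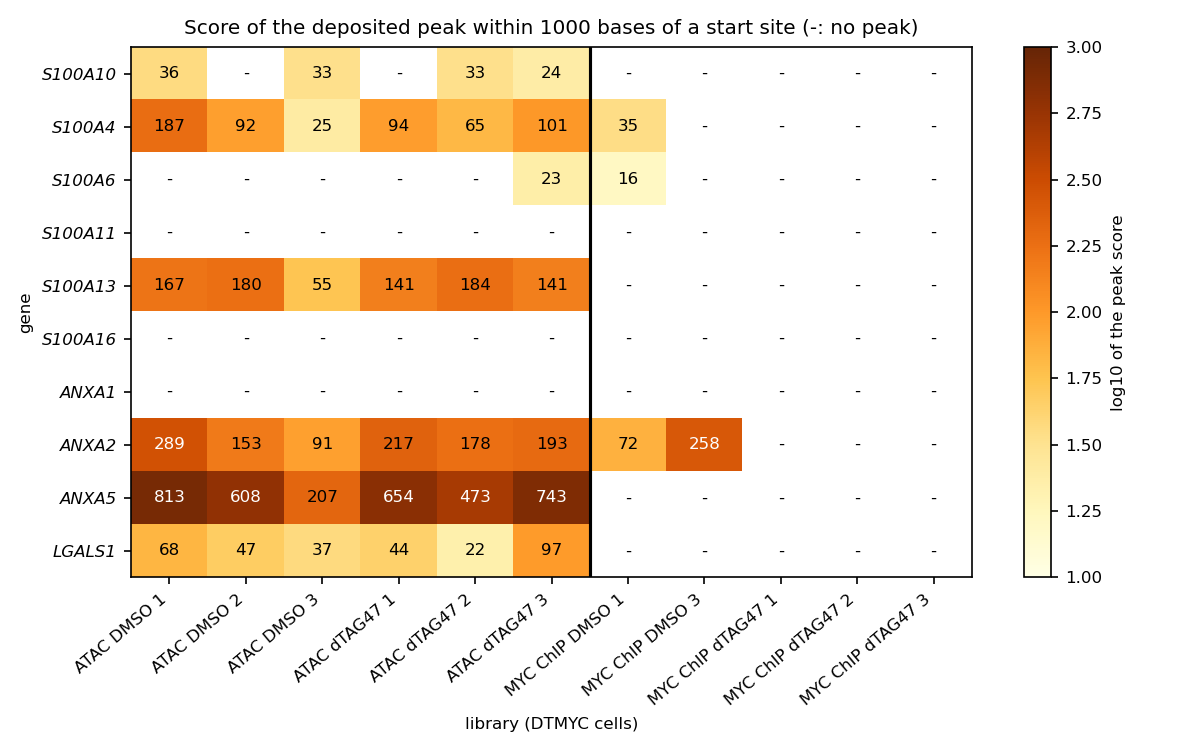
Score of the authors' peak (colour on a log10 scale, with the value printed and a dash for no peak) within 1000 bases of a start site of each gene (rows) in the 6 ATAC-seq and 5 MYC ChIP-seq libraries of DTMYC cells (columns). ANXA2, ANXA5, S100A4, S100A13 and LGALS1 had an ATAC peak in all 6 libraries, and MYC peaks were confined to the DMSO libraries shown, at ANXA2, S100A4 and S100A6.

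After dTAG47 in DTMYC cells, where 8.71% of all genes were called, the wider families were counted as lists. Of the 8 tested genes in the list of other S100 genes, which includes the S100-binding proteins S100PBP and CACYBP, 1 rose and 0 fell, namely S100A14, by 1.06 ± 0.28 on the log2 scale from 0.300 to 0.629 CPM (edgeR, adjusted p = 0.0360). Of 5 other annexins 2 rose and 0 fell: ANXA6 by 0.33 (adjusted p = 0.0193) and ANXA9 by 0.54 (adjusted p = 0.0349). Of 6 other galectin genes and ligands 2 rose and 0 fell: LGALS3, the chimeric galectin-3, by 0.34 from 342 ± 14.3 to 435 ± 6.11 CPM (adjusted p = 0.0111), and LGALS3BP, a glycoprotein that galectin-3 binds, by 0.62 (adjusted p = 0.0133). The call of each of these 5 genes was lost on leaving out at least one DTMYC library. In parental cells, where only 0.127% of all genes were called, none of the 3 families had a called gene by edgeR.

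Under dTAG47 these families differed between the lines gene by gene. In the list of other S100 genes 4 were higher in DTMYC cells and 1 lower, among them S100A2 by 1.62, S100A3 by 1.34 and S100A14 by 1.78, with S100A1 at −0.79. S100A14, counted among the 4, had a parental mean of 0.180 CPM. That is below the 0.293 CPM that the filter on low counts asked of a library, so no p-value is given for it. The other annexins went the other way from ANXA1, ANXA2 and ANXA5: 4 of 5 were lower in DTMYC cells and 0 higher, with ANXA11 at −0.67, ANXA4 at −0.41, ANXA6 at −0.36 and ANXA9 at −0.52. Among galectins LGALS8 was higher by 2.26, LGALS3 by 1.31 and LGALSL by 0.86, and LGALS3BP lower (−2.57, from 40.6 CPM in parental to 6.82 in DTMYC cells). Each of these genes but S100A14 had an edgeR adjusted p of at most 0.00333, beside the 76.4% of all genes called in that comparison.

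The partners of these proteins were counted beside the same shares of all genes, 8.71% called after dTAG47 in DTMYC cells and 76.4% between the lines. In the plasminogen system that annexin A2 and S100A10 serve, 2 of 9 genes rose and 0 fell after dTAG47, CTSB (cathepsin B) by 0.36 and SERPINB6, a protease inhibitor, by 0.32 (edgeR adjusted p-values 0.0232 and 0.0430). Under dTAG47, 4 of these 9 were higher in DTMYC cells and 2 lower, with CTSB at 1.10, SERPINB6 at −1.20 and ENO1, a surface plasminogen receptor as well as a glycolytic enzyme, at −0.59. Of 13 binding partners of S100 and annexin proteins 1 rose after dTAG47, AHNAK2, a scaffold related to the S100A10 ligand AHNAK, by 0.45 (adjusted p = 0.0248). Between the lines 8 were higher and 3 lower, including EGFR at 3.75 (316 ± 3.49 against 23.5 ± 3.49 CPM), AHNAK2 at 1.70, MYH14 at 1.66 and ASIC1 at −1.22. Under dTAG47, FGF1 (0.470 in DTMYC against 0.193 CPM in parental cells) and IL1A (0.445 against 0.0730) had parental means below the 0.293 CPM of the filter. SYT1 (0.106 against 2.34) and DLC1 (0.0732 against 0.388) had DTMYC means below it. Any call counted for these genes has the limit given for S100A14. Of 11 genes of membrane repair and calpains, OTOF (otoferlin) rose by 1.36, from a low 0.339 to 0.873 CPM (adjusted p = 0.0206). CAPN1 (calpain 1) rose by 0.40, from 132 to 174 CPM (adjusted p = 0.0188). Between the lines 3 of these 11 were higher and 5 lower, with EHD2 at 1.91, CAPN2 at 0.56, CAPNS1 at −0.95 and CHMP4B at −0.62. All of these calls after dTAG47 were lost on leaving out at least one DTMYC library. None of the 3 lists had a gene called by edgeR in parental cells, where only 0.127% of all genes were called.

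Genes with the most similar pattern were taken by Pearson correlation of log2 CPM over the 12 RNA-seq libraries, among 9948 other genes with a mean of at least 5 CPM. Those of S100A10 were DLK1 (r = 0.999), CHST2 (0.998) and PRICKLE1 (0.998), and the most opposite were PDGFC (−0.998) and CCND2 (−0.998). All 5 split the 6 DTMYC from the 6 parental libraries, which is what these values share: DLK1 was at 555 CPM in DTMYC and 3.62 in parental cells in DMSO, and CCND2 at 1.55 and 455. The genes most like LGALS1 followed both line and treatment, namely FBLIM1, a filamin-binding adhesion protein (r = 0.991), CYB5R1 (0.984) and CAPN1 (0.977). FBLIM1 went from 19.9 to 31.5 CPM after dTAG47 in DTMYC cells and was at 38.2 and 34.7 CPM in parental cells. The most opposite to LGALS1 were the ribosome assembly genes TSR1 (−0.969), which went from 219 to 164 CPM in DTMYC cells, and RRP1B (−0.968), which went from 389 to 267. These correlations describe 12 libraries that fall into 4 groups, and libraries of a group are not independent points of a trend.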

How the data were processed

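RNA-seq and PRO-seq values are raw read counts per gene, as deposited by the authors. A signal column that the authors deposited (gene body count over length) served only to recover that length. The peak lists carry the score deposited by the authors, 10 times −log10 of the MACS2 q value, for single libraries. Labels name the ChIP antibody MYC, and list names say HA. The submitters' processing notes name STAR, featureCounts, Bowtie2, cutadapt, MACS2, DiffBind, DESeq2 and hg19, with roles and versions not given in the sources used here. The 3 IgG libraries were not used here.

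The main test was the edgeR 4.0.16 quasi-likelihood F-test (filterByExpr by group, TMM, two-sided, Benjamini-Hochberg over all genes, threshold 0.05), with the 12 RNA-seq libraries in 1 fit and the 4 PRO-seq libraries in another. It was also run on simulated data with the same spread for all genes and no difference between the lines. Those settings differ from these data, and the outcome is not given here. Promoter-proximal counts were scaled by gene body library sizes. CPM uses effective library sizes, and each SE is the size of the log2 change over the square root of F. Alternatives were DESeq2 1.42.0, RLE factors, no filter, 2 groups only, a replicate block and leaving out each library. A peak belonged to a gene when it overlapped, by at least 1 base, 1000 bases either side of a GENCODE v44lift37 protein-coding start. Count intervals are exact and cover counting error only. Also named are the genes most and least like S100A10 and LGALS1, their 5 nearest tested genes on each side, and up to 4 called genes per list and contrast with the smallest adjusted p. The value of 1 called gene of the plasminogen list is not reported here. The members and lists were chosen with earlier results of these data known.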

Additional observations from a re-analysis of the deposited data

Results flagged for a closer look

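The response to dTAG47 differed between the lines for 3 of the 10 genes by edgeR's test of the difference of responses. This difference, DTMYC minus parental, was 0.90 on the log2 scale for LGALS1 (adjusted p = 0.0157), 0.85 for ANXA1 (adjusted p = 0.0206) and 0.74 for S100A16 (adjusted p = 0.0368). DTMYC libraries rose in all 3 genes with no overlap, and parental libraries lay lower after dTAG47 with no overlap in ANXA1 and S100A16 but overlapped in LGALS1. Parental DMSO library 3 was the highest of its group for ANXA1 and the lowest for LGALS1 and S100A16, and all 3 calls held without it. All 3 were lost on leaving out DTMYC DMSO library 1, DTMYC dTAG47 library 1 or 2, or any parental dTAG47 library (adjusted p 0.0551 to 0.121).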

How the results depend on the processing

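Members called after dTAG47 in DTMYC cells went from 5 to 2 without the filter on low counts, and from 2 to 6 on leaving out each library in turn. Genes called in all were 4593 with only the 2 groups in the fit (1167 with all 4 groups) and 329 to 3951 on leaving out each library. In parental cells 17 genes became 299 with DESeq2, 7 with RLE size factors, 0 with the 2 groups only and 0 to 2718 on leaving out each library, and called members went from 0 to between 0 and 5. Differences between the responses went from 159 genes to 583 with DESeq2, 63 with RLE and 102 without the filter, and on leaving out each library to 5 to 2417 genes and 0 to 7 members. In PRO-seq gene bodies 67 genes were called by DESeq2, 2 without the filter and 5 to 44 on leaving out each library. With a peak score of at least 50, 3 members in place of 5 had an ATAC peak in all libraries and 1 in place of 3 had a MYC peak in DMSO. Leaving out each ChIP library, chosen after seeing the data, gave 1 to 3, and leaving out each ATAC library gave 5 in each case.

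The replicate numbers in the labels name no shared source, and same-numbered RNA-seq libraries did not all deviate together, so numbers were not taken as pairs. Same-numbered PRO-seq libraries did deviate together (r = 0.643 for both pairs), which with 2 libraries a treatment is 1 independent value. With a replicate block 5 genes were called in parental cells, 79 for the difference of responses, and 4360 genes and 5 members in gene bodies, where 1 residual degree of freedom was left. Those 5 were ANXA2 (adjusted p = 1.64e-08), S100A10 (6.63e-05), ANXA5 (0.000548), S100A4 (0.00274) and ANXA1 (0.00387). For dTAG47 in DTMYC cells the block left 4 members, with ANXA5 lost, and outside the group S100A14 was lost (adjusted p = 0.0585 for each).

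Direction changed on leaving out 1 library for values that were not called. In parental cells the log2 changes ranged from −0.32 to 0.52 for S100A10, −0.21 to 0.00077 for S100A6, −0.94 to 0.30 for S100A11 and −0.026 to 0.041 for ANXA5. The difference of responses ranged from −0.17 to 0.67 for S100A10 and −0.037 to 1.20 for S100A11. In gene bodies S100A6 ranged from −0.30 to 0.15, S100A13 from −0.041 to 0.096 and S100A16 from −0.16 to 0.56, and OAZ3 between the lines under dTAG47 from −0.16 to 0.19.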
